A study of Mus musculus with 2 samples.

Results

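Adipocytes store fat as triglyceride, and 10 genes that encode steps of its synthesis were examined for open chromatin: Gpam, Agpat2, Lpin1, Lpin2, Lpin3, Dgat1, Dgat2, Gpd1, Pck1 and Pcx. They were chosen by name from the 21853 protein-coding genes of GENCODE M21 with a coding start site. Every DNase I peak and hotspot that overlapped a gene body or the 50 kb on either side of it was taken, which gave 229 of 133695 peaks in replicate 1 and 440 of 216556 in replicate 2. Merged where they overlapped by at least 1 bp, these made 440 intervals, of which 208 held a peak of both libraries. Those 208 are called shared peaks below.

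Both libraries came from 1 group: adipocytes obtained in culture from the mouse preadipocyte line 3T3-L1 and taken at day 8 of differentiation. They were labelled as biological replicates 1 and 2, carried the same donor record, and gave the strain as C57BL/6J, although 3T3-L1 is generally described as Swiss-derived. No undifferentiated or otherwise treated library was analysed here, so nothing below is a change, and 1 immortal line differentiated in a dish is the whole model. The DNase I enzyme cuts DNA where it is not covered by nucleosomes, a peak is a narrow site of raised cutting and a hotspot the broader region around such sites.

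Triglyceride is built on glycerol 3-phosphate by adding an acyl chain (glycerol-phosphate acyltransferases, Gpam among them), a further one (Agpat2), removing the phosphate (the lipins) and adding the last chain (Dgat1 and Dgat2). Fat cells make the glycerol 3-phosphate through Gpd1, from glucose or, in glyceroneogenesis, from pyruvate. The route from pyruvate runs through pyruvate carboxylase (Pcx) and the cytosolic phosphoenolpyruvate carboxykinase (Pck1). In fat, Pck1 transcription is known to use an upstream site of the nuclear receptor PPARγ, which binds with RXR, and in liver the gene answers to cyclic AMP through an element close to its start.

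The open sequences around which the results turn are printed first, in the direction of transcription of the named gene, on build GRCm38 (mm10), in lower case with every match to a searched motif in capitals. All are peaks shared by both libraries except 3 stretches of Pck1, Agpat2 and Lpin2, which are the bases before a RefSeq start (GRCm38.p6). The motifs, searched on both strands, were PPAR-RXR (AGGTCANAGGTCA, up to 2 mismatches), LXR (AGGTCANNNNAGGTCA, up to 2), glucocorticoid receptor (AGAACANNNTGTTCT, up to 2), C/EBP (TTGCNNAA), AP-1 (TGANTCA) and CRE (TGACGTCA, up to 1). The others were NFI (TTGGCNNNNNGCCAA, up to 1), SREBP (TCACNCCAC), E-box (CACGTG), EBF (TCCCNNGGGA) and SP and KLF (GGGCGG). Matches of different motifs can overlap, as PPAR-RXR and LXR share a half-site. Pck1 comes first because its strongest opening and its matches to the searched motifs do not lie in the same stretches. The stretches are its strongest peak (chr2:173151916-173152065, plus strand, no match), the peak next to its start (chr2:173152596-173152785, PPAR-RXR), a peak 28477 bp upstream (chr2:173124476-173124665, C/EBP, PPAR-RXR and CRE in that order) and the 225 bases before the annotated transcript (chr2:173152823-173153047, CRE), which no peak of either library touched.
Pck1 strongest peak: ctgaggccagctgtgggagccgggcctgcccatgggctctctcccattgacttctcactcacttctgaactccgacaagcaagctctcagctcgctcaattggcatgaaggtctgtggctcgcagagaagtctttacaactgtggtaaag
Pck1 start-proximal peak: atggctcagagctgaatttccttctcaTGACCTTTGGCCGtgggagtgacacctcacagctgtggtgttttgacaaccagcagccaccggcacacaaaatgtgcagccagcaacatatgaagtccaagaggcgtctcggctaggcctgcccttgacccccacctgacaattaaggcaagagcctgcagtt
Pck1 far upstream peak: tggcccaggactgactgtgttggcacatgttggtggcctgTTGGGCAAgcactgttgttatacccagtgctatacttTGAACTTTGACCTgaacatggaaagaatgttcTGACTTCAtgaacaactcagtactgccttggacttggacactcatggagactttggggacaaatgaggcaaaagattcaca
Pck1 upstream of start: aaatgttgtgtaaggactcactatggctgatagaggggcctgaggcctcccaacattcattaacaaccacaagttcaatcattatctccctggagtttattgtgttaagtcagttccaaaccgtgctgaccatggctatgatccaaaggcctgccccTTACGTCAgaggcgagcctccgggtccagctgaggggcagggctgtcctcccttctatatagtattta

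For the acyltransferases, Gpam is shown by the intergenic peak before its outermost start (chr19:55139396-55139565, minus strand, PPAR-RXR then C/EBP at 2 places) and by the peak at its inner start (chr19:55099476-55099625, minus strand, CRE and SP and KLF). Agpat2 is shown by the 250 bases before its RefSeq start (chr2:26604418-26604667, minus strand, SP and KLF), the last of which lie in its only shared promoter peak. Dgat2 is shown by its stronger promoter peak (chr7:99182936-99183125, minus strand, E-box) and by an intronic peak (chr7:99161636-99161805, minus strand, LXR then PPAR-RXR) that was chosen after its values and matches were seen.
Gpam far upstream peak: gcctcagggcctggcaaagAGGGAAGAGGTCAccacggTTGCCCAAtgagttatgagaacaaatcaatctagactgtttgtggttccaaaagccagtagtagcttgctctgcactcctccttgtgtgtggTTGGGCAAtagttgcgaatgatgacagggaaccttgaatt
Gpam inner start peak: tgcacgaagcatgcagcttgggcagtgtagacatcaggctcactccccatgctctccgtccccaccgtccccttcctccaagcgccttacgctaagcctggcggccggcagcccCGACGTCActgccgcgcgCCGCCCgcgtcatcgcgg
Agpat2 upstream of start: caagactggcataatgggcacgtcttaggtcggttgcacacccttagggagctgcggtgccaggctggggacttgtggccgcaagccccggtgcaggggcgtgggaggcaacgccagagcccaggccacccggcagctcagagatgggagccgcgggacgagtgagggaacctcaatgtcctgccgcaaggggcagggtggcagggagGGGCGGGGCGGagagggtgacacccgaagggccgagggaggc
Dgat2 promoter peak: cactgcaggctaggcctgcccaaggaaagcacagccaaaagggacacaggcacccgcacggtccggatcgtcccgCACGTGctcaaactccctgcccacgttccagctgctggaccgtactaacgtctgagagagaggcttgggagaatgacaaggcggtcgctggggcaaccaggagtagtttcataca
Dgat2 intronic peak: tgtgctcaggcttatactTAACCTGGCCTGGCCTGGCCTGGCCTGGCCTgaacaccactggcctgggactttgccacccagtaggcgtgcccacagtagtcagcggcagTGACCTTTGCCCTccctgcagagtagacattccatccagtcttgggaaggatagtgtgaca

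The lipins and pyruvate carboxylase are shown where an E-box or SREBP sequence was open. For Lpin1 this is the peak upstream of its outermost start (chr12:16618996-16619225, minus strand, E-box), and for Lpin2 the 250 bases before its outer RefSeq start (chr17:71183282-71183531, plus strand, SP and KLF then E-box), which end in its promoter peak. For Pcx they are the peak before its outermost start (chr19:4510176-4510465, plus strand, E-box then SP and KLF) and a peak at an inner start (chr19:4558296-4558525, plus strand, SREBP).
Lpin1 upstream peak: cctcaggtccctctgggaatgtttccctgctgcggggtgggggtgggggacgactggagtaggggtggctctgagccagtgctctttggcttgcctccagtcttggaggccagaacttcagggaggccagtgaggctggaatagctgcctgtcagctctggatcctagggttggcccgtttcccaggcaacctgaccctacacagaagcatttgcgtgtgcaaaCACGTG
Lpin2 upstream of start: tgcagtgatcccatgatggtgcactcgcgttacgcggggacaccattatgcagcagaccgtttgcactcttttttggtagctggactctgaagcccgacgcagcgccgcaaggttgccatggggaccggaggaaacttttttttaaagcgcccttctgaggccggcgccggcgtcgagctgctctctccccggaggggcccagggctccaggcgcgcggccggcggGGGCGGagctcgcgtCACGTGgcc
Pcx outer promoter peak: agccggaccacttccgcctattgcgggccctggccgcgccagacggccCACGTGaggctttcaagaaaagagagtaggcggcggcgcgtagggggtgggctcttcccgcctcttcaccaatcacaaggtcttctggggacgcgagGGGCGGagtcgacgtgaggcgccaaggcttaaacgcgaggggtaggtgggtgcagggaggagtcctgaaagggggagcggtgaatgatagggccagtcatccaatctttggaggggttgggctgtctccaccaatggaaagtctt
Pcx inner promoter peak: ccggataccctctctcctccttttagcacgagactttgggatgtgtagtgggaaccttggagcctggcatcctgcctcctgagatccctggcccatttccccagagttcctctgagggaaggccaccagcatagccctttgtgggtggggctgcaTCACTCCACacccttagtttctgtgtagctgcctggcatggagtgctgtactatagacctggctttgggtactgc

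All 10 genes had a peak of both libraries within 1000 bp of a protein-coding start site. Among all 21853 protein-coding genes the share was 55.3% in both libraries, 55.6% in replicate 1 and 59.5% in replicate 2. For 7 of the 10, all but Agpat2, Lpin2 and Gpd1, a promoter peak ranked among the strongest 10% of both lists, against 31.7% of all genes. Of the 12088 genes that, like these 10, had a promoter peak of both libraries, 6929 had one that strong. The authors' peak value runs from 1 to 150 in whole steps, with a median of 45 in replicate 1 and 69 in replicate 2, so values are read only within a library, and a percentile below is the rank within that library's list. In these bulk samples a weaker peak in every cell and an equal peak in fewer cells cannot be told apart. The sequencing depth is unknown, the binomial intervals below cover counting error only, and with 1 group no test between conditions was possible.

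Markers of fat cells and of other cell types were checked, from lists chosen with earlier results of these data known. Promoter peaks of both libraries were present at 7 of 7 adipocyte markers (Adipoq, Fabp4, Plin1, Cidec, Lipe, Pparg and Cebpa) and at 0 of 8 markers of hepatocytes, blood, endothelium, muscle, epithelium and preadipocytes (Alb, Ttr, Ptprc, Pecam1, Cdh5, Myod1, Epcam and Dlk1). The share over all protein-coding genes was 55.3%. In windows of the same kind, the median density of shared peaks per 100 kb was 23.4 at the adipocyte markers and 3.93 at the others. Among the others it ranged from 2.59 to 16.8, the highest at Pecam1, so a missing promoter peak did not always mean a window with few peaks. Replicate 2 had 1.62 times as many peaks as replicate 1 over the genome, and 1.92 times as many in the 10 windows. Of the replicate 1 peaks in the windows, 92.6% (212 of 229, exact binomial 95% interval 88.4 to 95.6%) were met by a replicate 2 peak, against 90.3% of the whole list. Of the replicate 2 peaks in the windows, 48.2% (212 of 440, 43.4 to 53.0%) were met by a replicate 1 peak, against 55.5% of the whole list. Across the 208 shared peaks the values of the libraries had a Spearman correlation of 0.946, and across all 117590 shared peaks of 0.944, as a description over peaks of the same pair of libraries.

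**Figure D1:**
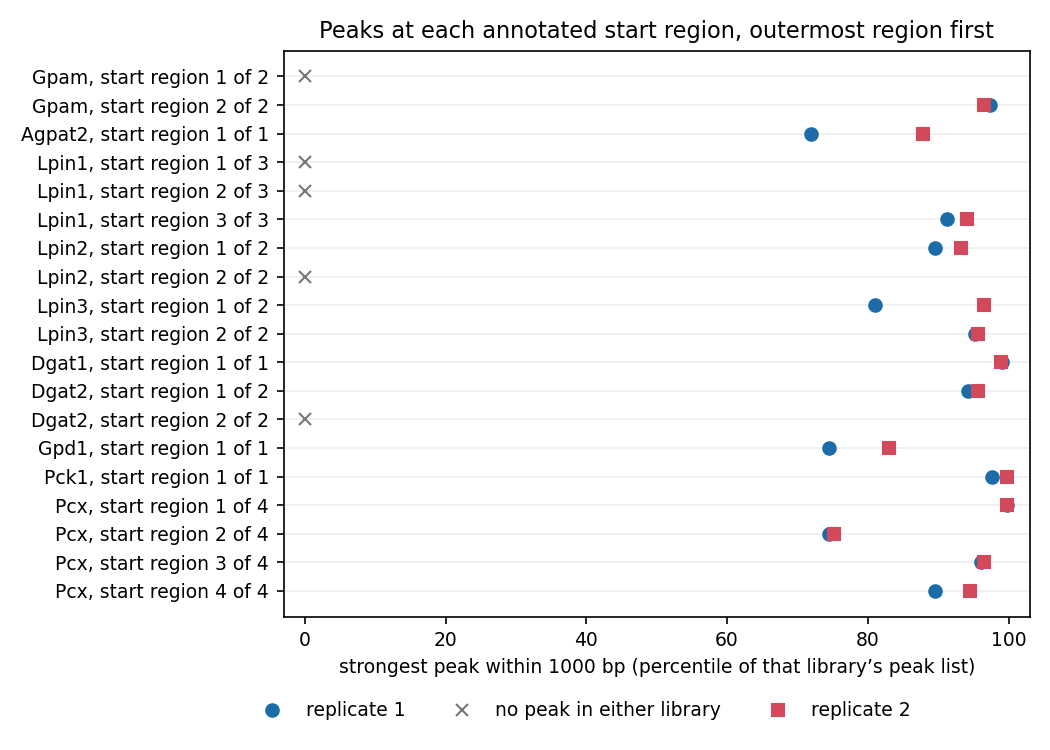
Strongest peak within 1000 bp of each annotated start region of the 10 genes, as its percentile in the peak list of replicate 1 (circles) and replicate 2 (squares); grey crosses at 0 mark regions with no peak in either library, and regions are numbered from the outermost in the direction of transcription. The outermost regions of Gpam and Lpin1 have no peak, while the innermost region of each lies above the 90th percentile in both libraries.

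Opening was uneven among the start sites of some of the 10 genes, as it was at most comparable genes. Start sites less than 500 bp apart were joined, which gave 19 start regions for the 10 genes, and 5 of them had no peak of either library within 1000 bp. These 5 belonged to Gpam, Lpin1 (2 regions), Lpin2 and Dgat2, so 4 of the 6 members with several start regions had at least 1 closed region, against 67.7% of the 5012 genes with several regions and a promoter peak of both libraries. In Gpam and Lpin1 the closed region was the outermost, which held for 2 of these 6 members and for 12.9% of the 5012 genes. With 6 members, neither count is read as standing apart from its background.

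Glycerol 3-phosphate supply is described first, beginning with Pck1 (chromosome 2 from 173153048 to 173159273, plus strand), the enzyme that makes phosphoenolpyruvate from oxaloacetate. Its strongest peak, the first sequence printed, was centred 1057 bp before the start and had the value 116 in replicate 1 and 148 in replicate 2 (percentiles 97.6 and 99.7). Its centre lies just outside the 1000 bp limit, so it counts as distal, while its edge lies inside, and only through that overlap is Pck1 among the 7 genes above. The peak centred 357 bp before the start was weaker, at 71 and 101 (percentiles 77.6 and 77.9). The start-proximal peak held the PPAR-RXR match TGACCTTTGGCCG with 2 mismatches, from 173152623 to 173152635. In the stronger peak no motif of the list matched within the set limits. With 3 mismatches allowed, a looser search chosen after seeing the data, TCACTTCTGAACT from 173151974 to 173151986 counted as a PPAR-RXR match. However, 20.5% of all distal shared peaks hold a match that loose. A site further from the consensus is missed by either search, so they do not show where the known PPARγ site of Pck1 lies.

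No Pck1 peak of either library lay over the start itself or over the CRE match TTACGTCA from 173152980 to 173152987. A hotspot covered the start in both libraries, 1740 bp wide in replicate 1 and 1811 bp in replicate 2, at the ceiling of 100 of the authors' −log10 q. Pck1 was also the gene with 0 shared peaks inside its body: of its 15 shared peaks, 9 lay upstream and 6 downstream. All 15 replicate 1 peaks of the window met a peak among the 25 of replicate 2. The upstream peaks at 19957 bp (92 and 131) and 28477 bp (83 and 130) before the start were nearer to Ctcfl, a paralogue of the insulator protein CTCF. Both lay outside protein-coding genes but overlapped the non-coding gene Ctcflos. The farther peak held the PPAR-RXR match TGAACTTTGACCT with 1 mismatch, a C/EBP match and a CRE match within the same 190 bp, and the nearer peak an LXR match.

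Pcx (chromosome 19 from 4510472 to 4621752, plus strand), pyruvate carboxylase, is the longest of the genes and had peaks at all 4 of its start regions. At the outermost region the highest values were 132 in replicate 1 and 148 in replicate 2, the strongest own promoter peak of the 10 genes in replicate 1. The second region reached 67 and 97, the third 110 and 138, and the fourth 92 and 133. The second region was thus the weakest in both libraries, and it was covered by a hotspot only in replicate 2. Pcx had 8 shared peaks at its own promoters and 9 distal shared peaks nearest to it. An intronic peak 1145 bp past the outermost starts (105 and 138) was the strongest distal one, followed by intronic peaks from 4578976 to 4579145 (91 and 128, NFI) and from 4536656 to 4536825 (89 and 118, C/EBP). At the third region, the peak before the start carried the SREBP sequence TCACTCCAC from 4558451 to 4558459. At the fourth region, the peak centred 355 bp before the start (69 and 128) carried the PPAR-RXR match TGACCCTTGCCCT with 2 mismatches.

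Gpd1 (chromosome 15 from 99717515 to 99725005, plus strand) encodes the cytosolic glycerol 3-phosphate dehydrogenase. Its promoter peak over the start had values of 67 and 109 (percentiles 74.5 and 82.9), with a second peak 602 bp past the nearest start at 57 and 99. Stronger openings lay on both sides: 83 and 131 at 1414 bp before the start, and 102 and 143 over exon and UTR sequence of Gpd1, 1677 bp from the start of the neighbouring gene Cox14. The promoter peak of Cox14 itself, from 99725516, had values of 125 and 146. Gpd1 is 7.49 kb long, so peaks of its 3′ end cannot be assigned to either of the genes. An E-box was centred 29 bp past the outermost start. Of its 21 shared peaks 9 were promoter peaks of other genes, the most for any of the 10 windows.

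Gpam (chromosome 19 from 55067268 to 55127238, minus strand), the mitochondrial acyltransferase that adds the first acyl chain, was open at its inner start only. The outermost starts, from 55127203 to 55127238, had no peak within 1000 bp in either library, and no hotspot covered them. The inner start at 55099451 had 3 peaks in each library, and the strongest, centred 700 bp past it, had values of 115 and 138 (percentiles 97.3 and 96.5). The other shared promoter peaks had values of 69 and 119 at 100 bp before that start and 56 and 109 at 510 bp before it. The hotspot over this start was 563 bp wide in replicate 1 with a −log10 q of 4.74, and 3914 bp wide in replicate 2 at the ceiling of 100. These widths describe only the hotspots over the start itself. That of replicate 1 was too narrow to reach from the start to the strongest peak, so the 2 hotspots do not hold the same peaks.

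Around Gpam, 13 distal shared peaks lay nearest to the gene, and its window held no other protein-coding gene. The strongest were close in rank: a peak over an untranslated exon 3750 bp before the inner start (109 and 140), which held an E-box, and the intergenic peak 12243 bp before the outermost start (112 and 137). The first was higher in replicate 2 and the second in replicate 1. The intergenic peak carried the PPAR-RXR match AGGGAAGAGGTCA with 2 mismatches and a C/EBP match 6 bases further on. An intronic peak 6690 bp before the inner start came next (90 and 125). The long non-coding gene AC110206.1 overlaps this peak and the one over the untranslated exon.

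Agpat2 (chromosome 2 from 26593057 to 26604417, minus strand), which adds the second acyl chain, had the weakest strongest promoter peak of the 10 in replicate 1: 64 there (percentile 72.0) and 118 in replicate 2 (percentile 87.8). A single distal shared peak lay nearest to it, 5069 bp before the nearest start, and it was strong, with values of 110 and 138. That peak is also intronic to Gm20532, a coding gene that spans Agpat2 on the opposite strand. The libraries differed most here: 18 peaks in replicate 1 and 69 in replicate 2, a ratio of 3.83, and hotspots of 5.03 and 25.8 kb in all. Among the 13343 genes with at least 10 replicate 1 peaks in the same window this ratio was at the percentile 99.7, and the median ratio was 1.49. Distal peaks nearest to Agpat2 numbered 1 in replicate 1 and 15 in replicate 2.

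Dgat1 (chromosome 15 from 76502015 to 76511953, minus strand) and Dgat2 (chromosome 7 from 99153658 to 99182719, minus strand) encode unrelated enzymes for the last acyl chain. The strongest Dgat1 promoter peak, at 80 bp before the start, had values of 125 and 145 (percentiles 99.1 and 98.9) and held the CRE match TGACGCCA from 76511973 to 76511980. A much weaker peak over coding exon sequence (32 and 74) contained TTACATCTGACCT, a PPAR-RXR match with 2 mismatches. An intronic peak 2200 bp past the start (92 and 136) was the strongest of its 5 nearest distal peaks. The window held 8 other coding genes, and the named peaks from 76461336 (98 and 133) and 76472636 (86 and 127) lay in introns of Bop1, a ribosome assembly gene.

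At Dgat2 the stronger promoter peak, centred 312 bp before the outer start, had values of 104 and 136, and the one at 82 bp had values of 80 and 130. The inner start at 99180293 had no peak in either library. Of all non-promoter peaks named here, the one past the 3′ end of Dgat2, from 99151436 to 99151585, shared the highest replicate 1 value (116) with the Pck1 peak and had 142 in replicate 2. It is 28782 bp from the Dgat2 start and 10370 bp from that of Uvrag, an autophagy gene, so it is assigned to the latter. Upstream, peaks from 99229476 (73 and 105) and 99217796 (69 and 103) were nearest to Mogat2, an acyltransferase of the monoacylglycerol route, which had no promoter peak in either library. The intronic peak printed above had lower values, 46 and 105, and carried the PPAR-RXR match TGACCTTTGCCCT with 1 mismatch. Its 4 LXR matches overlap one another in a run of a repeated 5-base unit. The libraries agreed most in peak number here, with 24 and 27 peaks, a ratio of 1.13.

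The 3 lipins, which remove the phosphate from phosphatidate, differed in where they were open. Lpin1 (chromosome 12 from 16535669 to 16610966, minus strand) had no peak at its start regions at 16610966 and 16604113. The innermost region, from 16589720 to 16589773, had 3 peaks in each library, the highest with values of 96 and 132. Of its 14 nearest distal shared peaks, the strongest lay upstream of the closed outermost start, at 19405 bp (109 and 134) and 8145 bp (101 and 134). The latter ends with an E-box, and a further strong peak lay past the 3′ end (91 and 137).

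Lpin2 (chromosome 17 from 71182560 to 71249817, plus strand) had the most nearest distal shared peaks of the 10, at 15. Over all 29 shared peaks of its window, of which 16 were distal and nearest to another gene, the median percentile was 47.8 in replicate 1 and 66.1 in replicate 2. Its promoter peak had values of 92 and 130, and the inner start at 71204676 had no peak. The strongest distal peak stood 18375 bp before the nearest start (94 and 131) with an AP-1 sequence. The next ones, from 71286056 (88 and 134, AP-1) and 71277796 (77 and 111, C/EBP), were intronic to Emilin2, an extracellular matrix gene.

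Lpin3 (chromosome 2 from 160880670 to 160906002, plus strand) had the fewest peaks, with 10 in replicate 1, 20 in replicate 2 and 10 shared. The outer start reached 76 in replicate 1 and 138 in replicate 2 (percentiles 81.0 and 96.5), and the inner region 107 and 136 (percentiles 95.2 and 95.7). The ranking of the libraries thus differed more at the outer start than at the inner one. The inner peak was centred 637 bp before the nearest start, and no hotspot covered the inner starts in either library. Its 3 nearest distal peaks were all intronic, at 81 and 128, 60 and 121 (C/EBP), and 62 and 97. All 10 replicate 1 peaks met a replicate 2 peak.

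**Figure D2:**
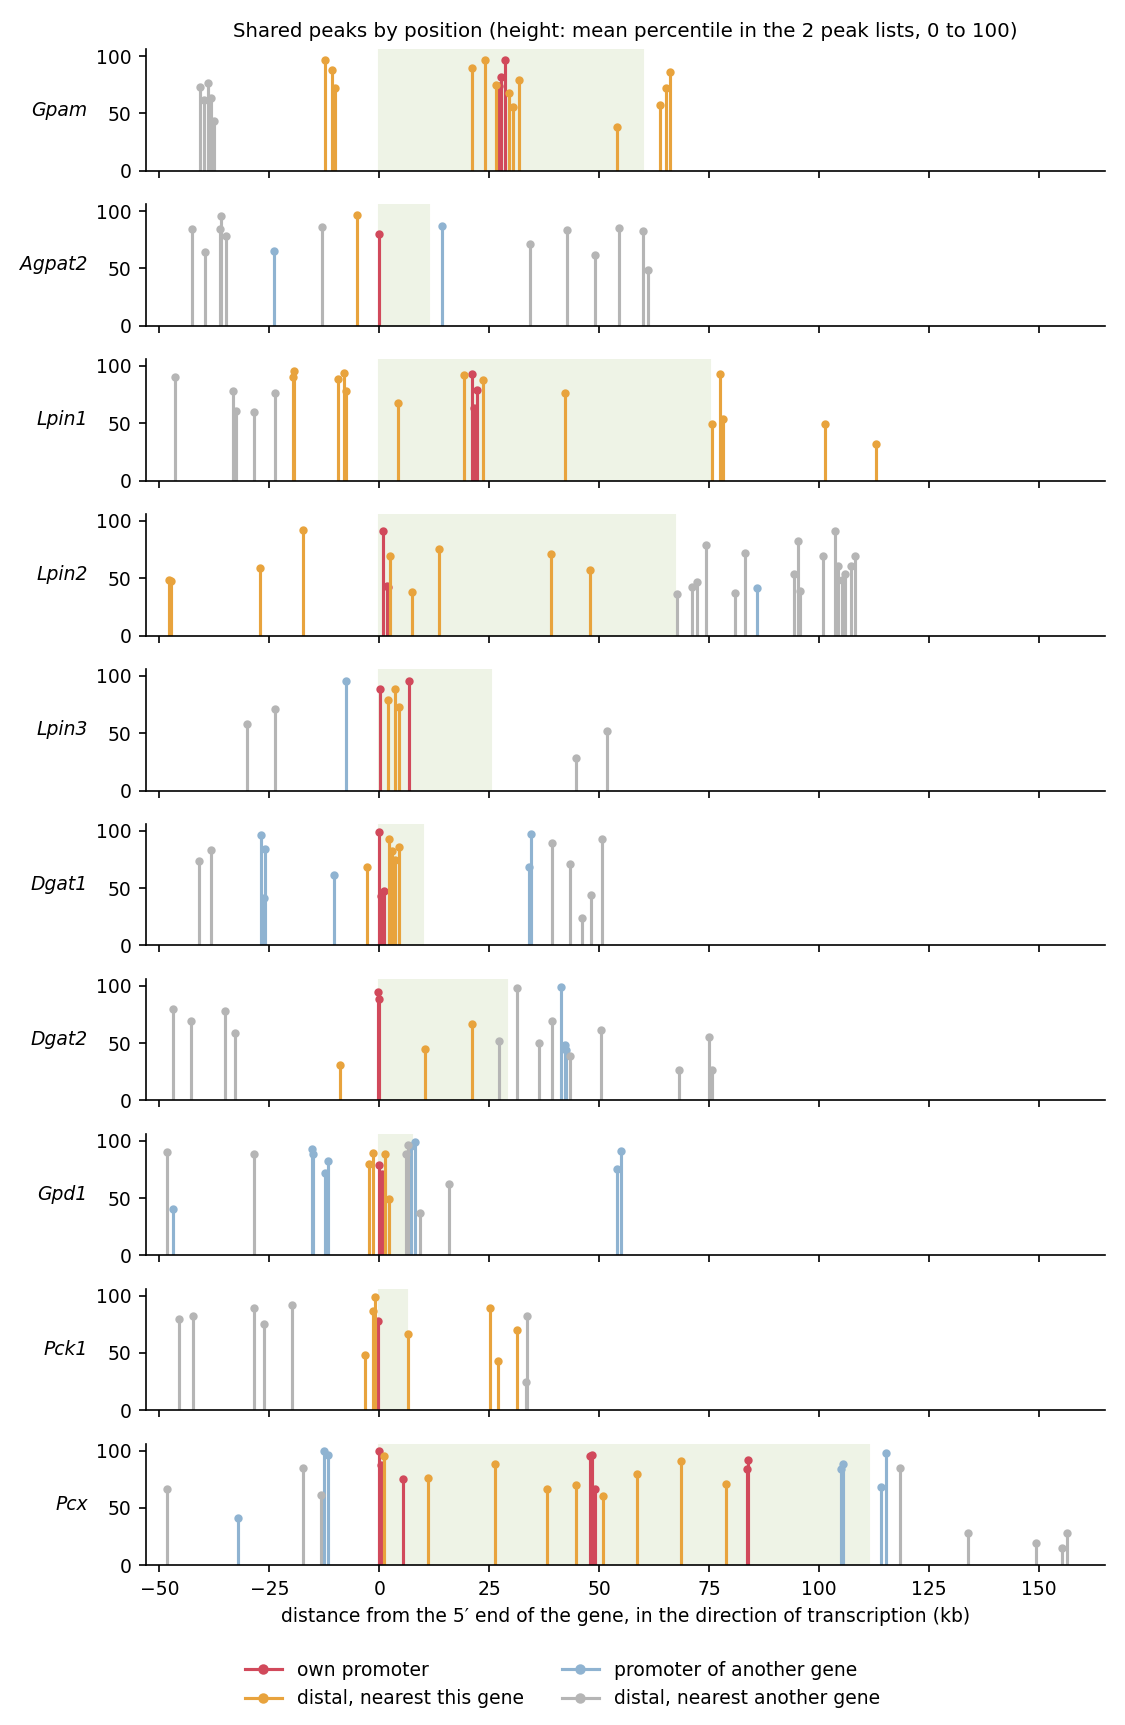
Position of the 208 shared peaks in the 10 windows, in kb from the 5′ end of each gene in the direction of transcription, with the gene body shaded; the height of each line is the mean of the percentiles in the 2 libraries, and the colour gives the class of the peak. Own promoter peaks (red, 28 in all) stand inside the body of Gpam and Lpin1, about 20 to 30 kb from the 5′ end, and Pck1 has no shared peak in its body.

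By class, the 208 shared peaks were 28 at a member's own promoter, 29 at the promoter of another gene, 68 distal and nearest to the member, and 83 distal and nearest to another gene. Own promoter peaks had a median percentile of 78.3 in replicate 1 and 89.2 in replicate 2, close to the 78.3 and 87.8 of all promoter shared peaks. Distal peaks nearest to the members had medians of 69.7 and 81.4, above the 50.7 and 67.7 of all distal shared peaks. These medians are descriptions of single lists and carry no test. The strongest 10% of both lists held 8 of the 28 own promoter peaks, against 31.7% of the 21972 promoter shared peaks. They held 13 of the 151 distal peaks in the windows, against 6.01% of the 95618 distal shared peaks.

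**Figure D3:**
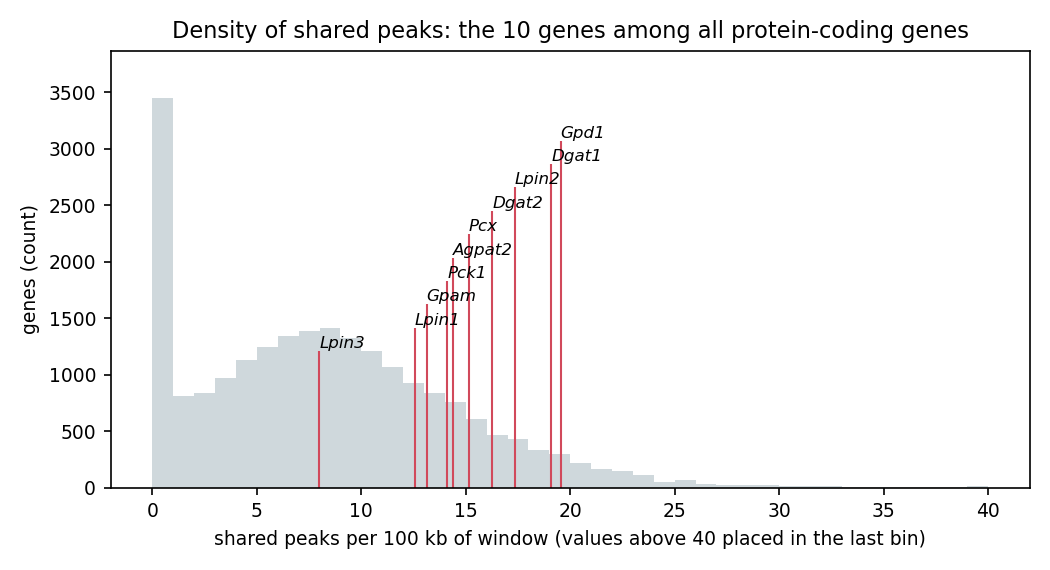
Shared peaks per 100 kb of window for all 21853 protein-coding genes (grey histogram, number of genes per bin of 1) and for each of the 10 genes (red lines, whose heights only separate the names). Lpin3 lies near the middle of the histogram at 7.98 and Gpd1 is the highest of the 10 at 19.5.

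Scaled to window length, the genes had a median of 14.8 shared peaks per 100 kb, against 7.84 over all protein-coding genes (quartiles 3.52 and 12.2) and 10.1 over genes with a promoter peak of both libraries. The density was 19.5 at Gpd1, 19.1 at Dgat1, 17.3 at Lpin2, 16.3 at Dgat2, 15.1 at Pcx, 14.4 at Agpat2, 14.1 at Pck1, 13.1 at Gpam and 12.6 at Lpin1. At Lpin3 it was 7.98, the percentile 51.0 of all genes, and the other 9 lay between the percentiles 76.4 and 94.9. The windows of Gpd1 and Dgat1 also hold 5 and 8 other coding genes, whose promoters add to the count. Counted as distal shared peaks nearest to the gene within 100 kb, the order changed: 15 at Lpin2, 14 at Lpin1, 13 at Gpam, 9 at Pcx, 7 at Pck1, 5 at Dgat1, 4 at Gpd1, 3 at Dgat2, 3 at Lpin3 and 1 at Agpat2. The median was 6, against 2 over all genes and 3 over those with a promoter peak of both libraries.

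**Figure D4:**
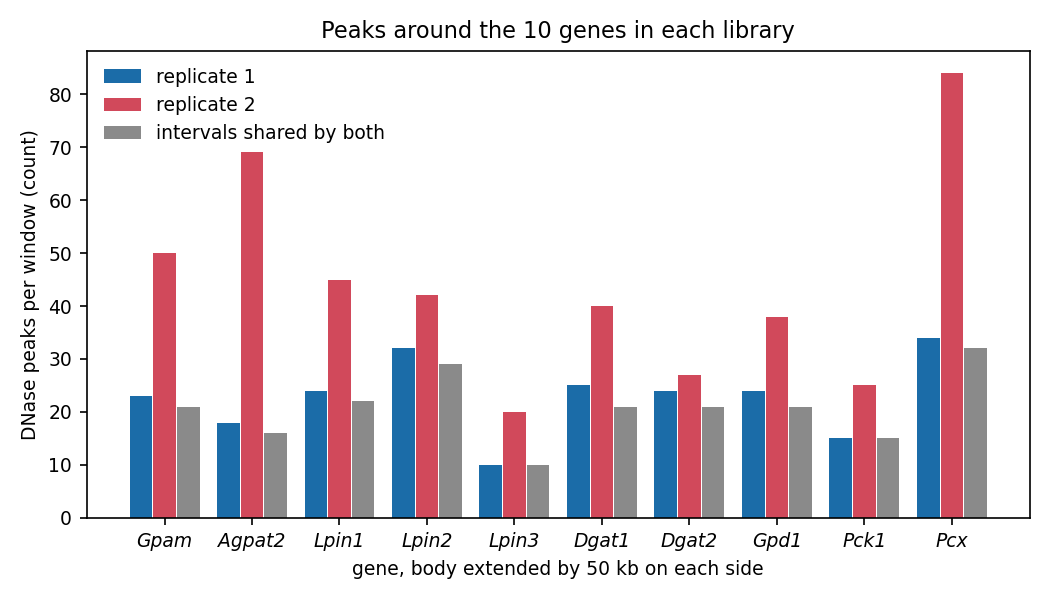
Number of peaks in the window of each of the 10 genes in replicate 1 (blue) and replicate 2 (red), with the number of intervals shared by both (grey). Replicate 2 has more peaks in every window, with 69 against 18 at Agpat2 and 27 against 24 at Dgat2.

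Replicate 2 had more peaks than replicate 1 in all 10 windows, and most of the surplus stood at few genes. Intervals with a peak of replicate 2 alone numbered 217, with 52 at Agpat2, 46 at Pcx and 27 at Gpam. Those of replicate 1 alone numbered 15. These counts are not scaled to window length, which was 111 kb at Agpat2, 211 kb at Pcx and 160 kb at Gpam. The ratio of peak numbers was 2.47 at Pcx, 2.17 at Gpam, 2.0 at Lpin3 and 1.88 at Lpin1, then 1.67 at Pck1, 1.6 at Dgat1, 1.58 at Gpd1 and 1.31 at Lpin2. In the windows the peaks of replicate 2 alone had a median percentile of 51.8 in its list (value 70), against 29.3 (value 53) for all 91754 such intervals. The part of depth in this difference was not tested.

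**Figure D5:**
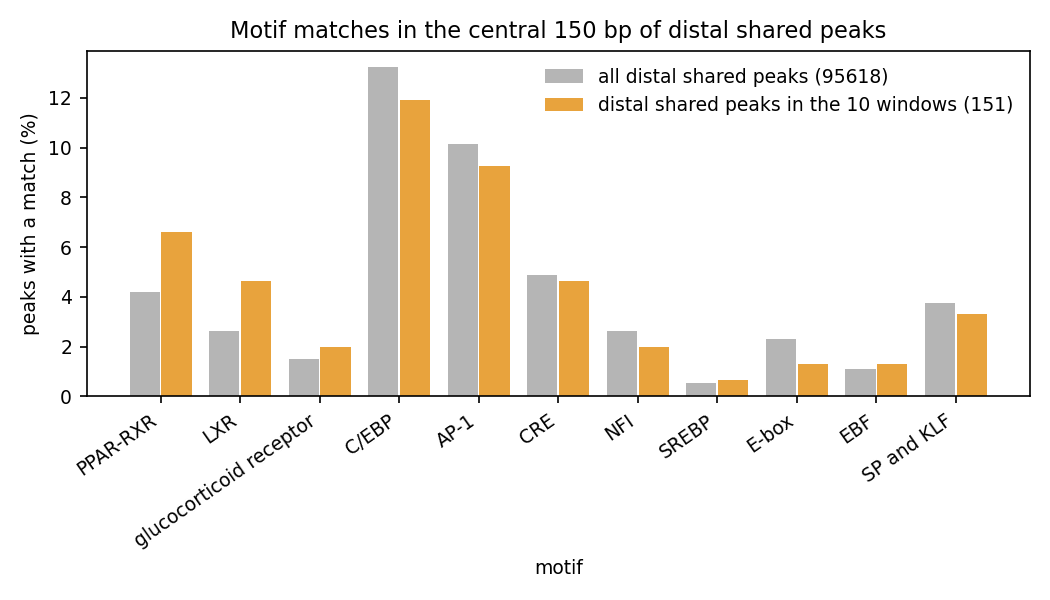
Share of distal shared peaks whose central 150 bp hold each motif, for all 95618 (grey) and for the 151 in the 10 windows (orange), in percent. The PPAR-RXR bars stand at 4.18% and 6.62%, and the C/EBP bars at 13.2% and 11.9%.

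Motif counts in the 151 distal peaks of the windows are given beside the share of all 95618 distal shared peaks. PPAR-RXR was found in 10 (6.62%, against 4.18%), and LXR in 7 (4.64%, against 2.64%). C/EBP was found in 18 (11.9%, against 13.2%), AP-1 in 14 (9.27%, against 10.1%) and CRE in 7 (4.64%, against 4.87%). The other counts were 3 for the glucocorticoid receptor (background 1.52%), 3 for NFI (2.63%), 1 for SREBP (0.526%), 2 for the E-box (2.29%), 2 for EBF (1.09%) and 5 for SP and KLF (3.75%). With counts this small, no share is read as standing apart from its background. The median GC content was 50.7% in these 151 peaks and 48.0% in all distal shared peaks.

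At the genes' own promoter peaks, taken whole, an E-box stood in 5 of 10 genes (Lpin2, Lpin3, Dgat2, Gpd1 and Pcx), against 11.6% of the 11990 genes with a shared peak centred within 1000 bp of their starts. The Lpin2, Dgat2 and Pcx boxes are in the sequences printed above. This count was set against its background after the matches had been seen. A PPAR-RXR match stood in 3 of 10 (Dgat1, Pck1 and Pcx), against 4.58%, and a CRE match in 2 of 10 (Gpam and Dgat1), against 15.3%. SP and KLF stood in 8 of 10, against 62.7%. The other motifs were not counted by gene. The windows held 57 promoter shared peaks, neighbouring genes included. In their central 150 bp, C/EBP and LXR were found in 0 (all promoter shared peaks: 6.03% and 1.11%). SP and KLF stood in 26.3% of them (36.0%), the E-box in 8.77% (5.18%), PPAR-RXR in 5.26% (1.97%) and CRE in 8.77% (6.88%). No share here is read as standing apart from its background, with counts this small. Genes with more promoter peaks offer more sequence, and Pcx alone has 8.

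RefSeq promoter sequences (GRCm38.p6, 250 bases before to 50 after the start) matched 7 of the 10 genes, with 12 promoters. None had the exact sequence TATAAA between 40 and 20 bases before the start, which 1.99% of the 32851 RefSeq promoters have. Variants of this sequence were not searched, so a promoter without it can still hold one. The promoter at the open inner start of Gpam had 68.0% GC and an observed to expected CpG ratio of 0.873, and the one at its closed outer start had 55.7% and 0.431. The closed outermost start of Lpin1 had 55.3% GC and a ratio of 0.0919. Of the Lpin2 starts, those of the open region had ratios of 1.05 and 1.11 and the closed one 0.268. The promoter sequence with the ratio 1.11 itself held no peak of either library. Low ratios were also found where both libraries had a peak in the promoter, with 0.321 at the outer start of Lpin3 and 0.208 at the innermost start of Pcx, so the ratio did not separate open from closed starts.

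Of 30 further genes of the pathway, 27 had a promoter peak of both libraries: 14 of 14 for glycerol 3-phosphate supply, 8 of 10 for acylation and 5 of 6 for cofactors and droplet assembly. The background is the 55.3% given above. The genes without one were Gpat2, Mogat2 and Fitm1, which lacked it in each library. In 22 of the 30 a promoter peak ranked among the strongest 10% of both lists, against 31.7% of all genes. Of the 12088 genes with a promoter peak of both libraries, 6929 had one that strong. The density of the 30 genes had a median of 11.0 shared peaks per 100 kb and reached 38.1 at Mdh1. The median was 7.84 over all protein-coding genes and 10.1 over those with a promoter peak of both libraries. The most nearest distal shared peaks stood at Mdh1, the cytosolic malate dehydrogenase, with 53, at the acyltransferase Agpat4 with 28 and at the acyltransferase Lclat1 with 21, against the highest count of 15 among the 10 genes.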

How the data were processed

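DNase-seq peaks and hotspots of 2 libraries were used as deposited. Per the labels the assembly was mm10. Aligner, peak caller and depth: not given in the sources used here. Each deposited 150 bp peak carries a signal value from the authors, on a scale not stated, which was read as a rank inside its own library. Each deposited hotspot carries a −log10 q from the authors, with a ceiling of 100. Duplicate peak lines (20 and 33) were counted once, and regions off the 21 assembled chromosomes were left out. Overlaps, nearest coding starts (within 100 kb) and motif matches were computed with Python 3.11.15, numpy 2.4.6, pandas 2.3.3 and scipy 1.17.1 against GENCODE M21 and the GRCm38 sequence. Procedures were tested on simulated peaks and sequences. For each gene the own promoter peaks and the 3 strongest shared non-promoter peaks of its window were named. Of the 30 pathway genes, those without a promoter peak and the 3 with the most nearest distal peaks were named. Members and lists were chosen with earlier results of these data known.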

Additional observations from a re-analysis of the deposited data

How the results depend on the processing

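All 10 genes kept a promoter peak with promoter windows of 500 and 2500 bp, in the stronger 50% of each list, with hotspots in place of peaks and in each library alone. The 208 shared peaks became 129 with an extension of 20 kb and 67 in the gene bodies alone. Leaving out 1 library at a time gave 229 to 440 peaks, a median density of 16.1 to 28.5 per 100 kb (14.8 shared) and 78 to 179 nearest distal peaks (74 shared). Without replicate 1 the count rose by more than 1.5 times in 8 of the 10 windows, and without replicate 2 in none of them. With PPAR-RXR matches of up to 3 mismatches, an alternative chosen after seeing the data, 34 distal peaks matched in place of 10. Requiring an overlap of at least 50% of each peak lowered the share of replicate 1 peaks met by replicate 2 from 92.6% to 85.6%. The cause of these shifts was not tested, beyond the smaller area or the single library that the settings themselves use. No paired analysis was possible because there is 1 group. The depth is unknown, so a closed start means only that no peak was called there.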
